A study of Homo sapiens with 12 samples.

Results

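The iron uptake, storage and sensing genes, 8 of the 57820 gene IDs in the deposited tables, were followed in AsPC-1 cells, an established human pancreatic cancer line. They were chosen by name for their roles, with earlier results of these data known. SLC11A2 and TFRC take iron up, FTH1 and FTL store it, NCOA4 sends ferritin for breakdown, SLC40A1 exports iron, and ACO1 and IREB2 sense it. All 8 passed the filter on low counts. Poly(A) RNA was sequenced from 4 groups of 3 libraries (replicates A, B and C). Cells received siRNA that was either scrambled (siControl) or directed at ARNT (siARNT), were kept at 21% O2 (normoxia) or at 1% O2 for 24 h (hypoxia), and were harvested 48 h after transfection. All 12 libraries come from 1 cell line and all were transfected, so the controls carry an siRNA too. The labels give wells in triplicate, and p-values measure only the spread between these samples.

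Transferrin-bound iron enters cells through the transferrin receptor, and the divalent metal transporter moves it from the endosome to the cytosol. Ferritin, a shell of heavy and light chains, stores what is not used, and ferroportin is the only known iron exporter of human cells. The iron regulatory proteins, encoded by ACO1 and IREB2, bind a hairpin called the iron-responsive element (IRE) when iron is scarce: in a 5′ UTR this blocks translation, and in the TFRC 3′ UTR it protects the transcript. ARNT encodes the shared partner of the hypoxia-inducible factor (HIF) alpha subunits, and TFRC and SLC11A2 have been described as genes that HIF can act on.

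The IREs are shown because they are the feature that the ferritin, ferroportin and transferrin receptor transcripts have in common. They were found in the UTRs of the GENCODE 29 transcripts (GRCh38) by a 29-base pattern with the loop CAGTGN. It required a C before the upper stem, 5 of 5 paired upper-stem positions and at least 3 of 6 paired lower-stem positions, with G-T pairs allowed. Capitals mark the 6-base loop.
FTH1, 5′ UTR, chr11:61967574-61967602, minus strand: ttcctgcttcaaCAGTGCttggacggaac
FTL, 5′ UTR, chr19:48965335-48965363, plus strand: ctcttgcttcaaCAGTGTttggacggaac
SLC40A1, 5′ UTR, chr2:189580661-189580689, minus strand: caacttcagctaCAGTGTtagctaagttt
TFRC, 3′ UTR, chr3:196050979-196051007, minus strand: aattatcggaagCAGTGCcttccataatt
TFRC, 3′ UTR, chr3:196050575-196050603, minus strand: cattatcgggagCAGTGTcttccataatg
TFRC, 3′ UTR, chr3:196050510-196050538, minus strand: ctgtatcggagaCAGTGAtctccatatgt
TFRC, 3′ UTR, chr3:196050463-196050491, minus strand: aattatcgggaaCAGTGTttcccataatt
The pattern occurred in the 5′ UTR of 18 of 18455 genes (0.098%) and in the 3′ UTR of 66 of 19008 genes (0.347%). SLC11A2 had no match to it. The pattern allows no bulge or unpaired base in the upper stem, so it can miss IREs. A gene without a match may still have one, and TFRC may have more than are shown.

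ARNT itself fell in every siARNT library. Its level, in CPM (counts scaled to a common library size with TMM factors), was 60.7, 63.6 and 63.0 in normoxia siControl and 13.3, 12.8 and 14.0 in normoxia siARNT. It was 70.3, 64.9 and 72.2 in hypoxia siControl and 16.0, 15.8 and 14.1 in hypoxia siARNT. The log2 fold change of siARNT was -2.22 ± 0.07 in normoxia and -2.17 ± 0.07 in hypoxia (SE), so residual ARNT RNA remained. Library depth lay between 38.53 and 84.34 M gene counts, and 16999 genes were tested. The chi-square per degree of freedom between replicates of a group ran from 4.3 to 89.11; it was 89.11 and 72.95 for normoxia siARNT B against A and C, and 61.18 for hypoxia siARNT A against C. Of 9 epithelial and pancreatic cancer markers, KRT8, KRT18, KRT19, EPCAM, CDH1 and CEACAM6 lay at 151 CPM or more in every library, MUC1 and CEACAM5 between 13.7 and 79.9, and KRT7 at 1.07 to 4.02. The 3 immune, 3 fibroblast, 2 endothelial and 2 acinar markers each stayed at or below 1.02 CPM, and CD3E and PECAM1 were at 0 in all 12 libraries.

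In siControl cells, 4 of the 8 genes changed with hypoxia, 2 upward and 2 downward, at an adjusted p under 0.05. Over all genes tested, 25.3% were called in this comparison. Whether the 8 differ from that share was not tested. SLC11A2 and FTH1 rose, and TFRC and ACO1 fell by less. FTL, NCOA4, SLC40A1 and IREB2 were not called. Under siARNT, hypoxia gave no edgeR call among the 8, where 4.09% of all genes were called (2.21% up, 1.89% down), and DESeq2 called none either. The unadjusted edgeR p was under 0.05 for 2 of the 8, ACO1 and SLC40A1, beside 3605 of the 16999 genes tested. Hypoxia libraries lay wholly apart from normoxia libraries for 4 of the 8 in siControl and for SLC40A1 alone in siARNT, shares that were 46.8% and 22.2% over all genes. The median log2 fold change of the 8 was 0.00 in siControl and 0.09 in siARNT, beside 0.02 and -0.04 over all genes.

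**Figure D1:**
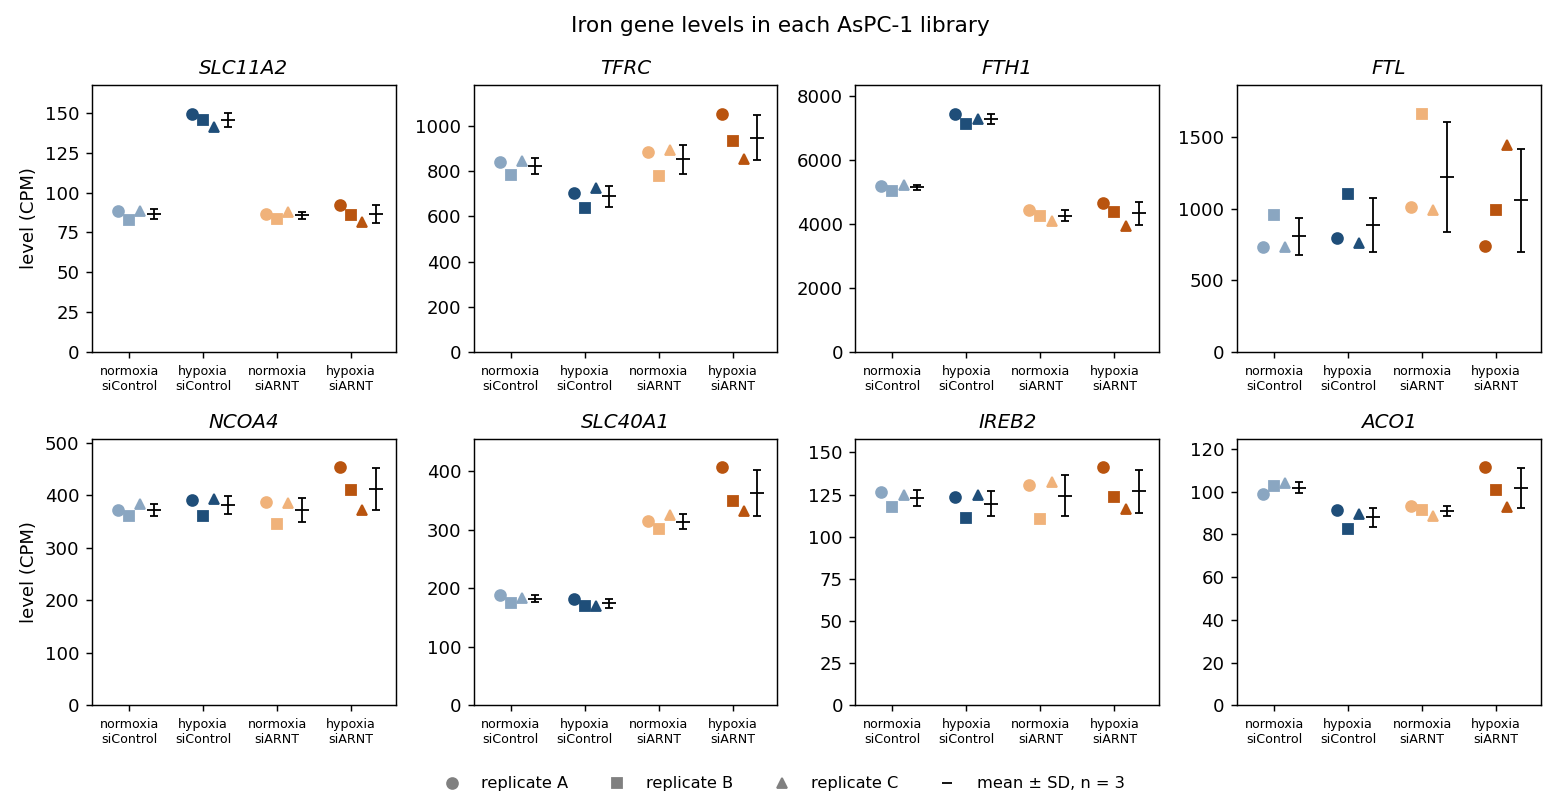
Level of each gene (CPM, axis from 0) in each of the 12 libraries, with points for replicates A, B and C and a bar for the mean ± SD (n = 3). SLC11A2 and FTH1 stand apart in hypoxia siControl, SLC40A1 stands higher in both siARNT groups, and FTL has single high libraries in the siARNT groups.

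Among the uptake genes, SLC11A2 (ENSG00000110911.10, chromosome 12) encodes the divalent metal transporter DMT1. It stood at 88.1, 83.0 and 88.6 CPM in normoxia siControl and at 150, 145 and 141 in hypoxia siControl. With siARNT it was 86.3, 83.2 and 87.5 CPM in normoxia and 92.3, 86.2 and 81.4 in hypoxia. The 3 hypoxia siControl libraries lay above all 9 others, which overlapped. The rise in siControl was 1.68-fold (log2 0.75 ± 0.06 SE, edgeR adjusted p 5.52e-06), against a log2 change of 0.02 ± 0.06 in siARNT (adjusted p 0.898). The difference between these changes was -0.73 ± 0.08 (adjusted p 5.14e-04). Interaction calls covered 4.69% of all genes (2.49% up, 2.19% down). Under each of the 22 alternatives that give an interaction value, the SLC11A2 difference was called, from -0.84 to -0.68. In bulk RNA, fewer expressing cells and less RNA per cell cannot be told apart, here and below.

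The 4 RefSeq transcription starts of SLC11A2 (GRCh38.p14) were searched for the HIF core motifs ACGTG and GCGTG on both strands, from 250 bases before to 50 after the start. Of these, 1 start held 4 motifs and the others 1, 0 and 1. The 250 bases before the first of these starts are shown because SLC11A2 was the member with the largest rise in hypoxia. This start is also the one with the most motifs, and which start these cells use was not tested. Capitals mark each motif as read on this strand.
SLC11A2, chr12:51026385-51026634, minus strand: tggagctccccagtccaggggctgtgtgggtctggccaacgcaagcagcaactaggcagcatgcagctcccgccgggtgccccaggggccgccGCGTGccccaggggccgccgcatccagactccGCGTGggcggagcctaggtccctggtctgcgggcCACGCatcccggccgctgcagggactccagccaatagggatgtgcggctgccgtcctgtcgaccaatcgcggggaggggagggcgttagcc
Its motifs begin at -157, -125 and -91, and the last at 2, beyond the stretch shown. Among 35116 promoter windows, 21.4% held ACGTG, 36.5% GCGTG, 48.4% either and 10.1% at least 3. FTL held 3, TFRC 1 (at -88), ACO1 1, the 2 IREB2 starts 1 and 0, and SLC40A1 and both NCOA4 starts none. The FTH1 promoter was not analysed here. A match here is a description of these letters and not a binding site.

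TFRC (ENSG00000072274.8, chromosome 3) encodes the transferrin receptor. Its level was 840, 782 and 846 CPM in normoxia siControl and 704, 638 and 726 in hypoxia siControl. In siARNT it was 884, 776 and 896 CPM in normoxia and 1055, 932 and 856 in hypoxia. The hypoxia siControl libraries were the lowest 3 of the 12. The fall in siControl was -0.26 ± 0.09 (edgeR adjusted p 0.0477), and this call was lost in 12 of 23 alternatives, with values from -0.29 to -0.17. In hypoxia, siARNT raised TFRC by 0.46 ± 0.09 (adjusted p 0.00183), a call kept in 22 of 22 alternatives. The change of TFRC with hypoxia differed between the siRNAs by 0.41 ± 0.12, which was not called (adjusted p 0.0815). It was called in 6 of 22 alternatives, among them total count scaling (edgeR adjusted p 0.0193) and GC correction (0.29, adjusted p 3.51e-04). The replicate letter as a block also called it (adjusted p 0.0431), but the letters are not shown to pair libraries.

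Of the storage genes, FTH1 (ENSG00000167996.11, chromosome 11), the heavy ferritin chain with ferroxidase activity, was highest in hypoxia siControl, and lay lower with siARNT at both oxygen levels. It stood at 5175, 5048 and 5215 CPM in normoxia siControl and 7457, 7139 and 7297 in hypoxia siControl. In siARNT it was 4424, 4253 and 4087 CPM in normoxia and 4659, 4384 and 3954 in hypoxia. The 6 siARNT libraries lay below all 6 siControl libraries. Hypoxia raised FTH1 1.42-fold in siControl (0.50 ± 0.06, edgeR adjusted p 1.62e-04) and by 0.03 ± 0.06 in siARNT (adjusted p 0.838). The difference was -0.48 ± 0.09 (adjusted p 0.0124). The siARNT log2 change of FTH1 was -0.75 ± 0.06 in hypoxia (adjusted p 4.92e-06). In normoxia it was -0.27 ± 0.06 (adjusted p 0.0116), a call lost without a filter on low counts (0.0659).

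FTL (ENSG00000087086.9, chromosome 19), the light ferritin chain, gave no call in any of the 5 comparisons. Its level was 732, 957 and 730 CPM in normoxia siControl and 798, 1104 and 762 in hypoxia siControl. In normoxia siARNT it was 1009, 1663 and 987 CPM, and in hypoxia siARNT 737, 988 and 1445. Replicate B was the highest in 3 groups and replicate C in hypoxia siARNT. The log2 change was 0.14 ± 0.26 with hypoxia in siControl and 0.60 ± 0.26 with siARNT in normoxia (edgeR adjusted p 0.12). The 95% interval of the hypoxia change ran from -0.38 to 0.66, which includes the FTH1 change. FTL has a transcript GC content of 56.3%, the highest of the 8. The libraries' GC slope, the log2 change of level per 10 percentage points of GC, ran from -0.20 to 0.40, and 8 of the 12 libraries had the same rank in FTL level as in slope. Its part in the FTL values was not tested.

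**Figure D2:**
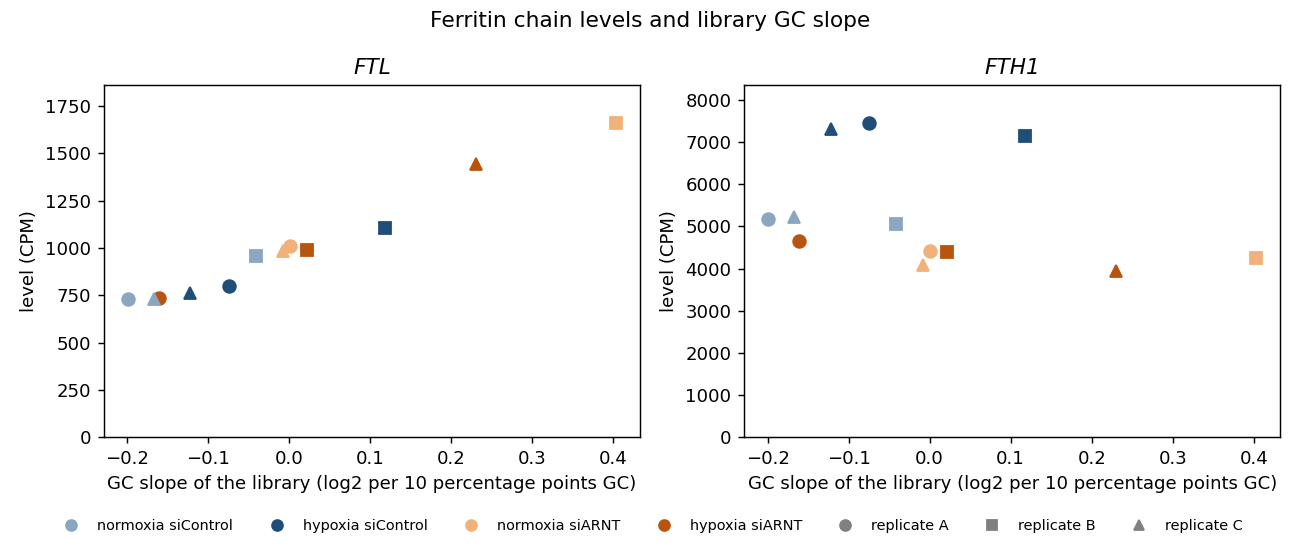
Level of FTL and FTH1 (CPM, axis from 0) against the GC slope of each library (log2 per 10 percentage points of GC), with colours for the groups and shapes for the replicates. FTL runs from 730 to 1663 CPM along the slope. The FTH1 points separate by oxygen in siControl, and the siARNT groups lie below them and overlap.

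With the GC correction, SLC11A2 and FTH1 in hypoxia siControl (0.83 and 0.56) and SLC40A1 under siARNT (0.92 in normoxia, 1.07 in hypoxia) stayed called. The correction called more genes throughout. Of the 8 it called 5 with hypoxia in siControl, where 43.3% of all genes were called, and 4 in siARNT, all upward, where 22.2% were. For siARNT it called 5 in normoxia and 7 in hypoxia, beside 33.2% and 46.7% of all genes, and in the interaction 4, beside 18.9%. FTL stayed uncalled in all 5 comparisons, and its siARNT change in normoxia was 0.30 after the correction and 0.30 without normoxia siARNT replicate B.

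Processed ferritin pseudogenes share sequence with both chains. The 25 FTH1 and 16 FTL pseudogenes together held 0.556 to 1.08% and 0.401 to 0.858% of the respective sums. Reads counted there would thus add little to the chain values. Reads that fit both a chain and a pseudogene and were counted for neither cannot be seen in these shares. NCOA4 (ENSG00000138293.15, chromosome 10), which carries ferritin to the autophagosome, ranged from 345 to 454 CPM. Its groups overlapped in each comparison of a pair of groups, and none of the 5 comparisons was called. With GC correction NCOA4 was called upward in 4 of the 5, all but the interaction, by 0.12 each (edgeR adjusted p 0.00482 to 0.0122). For siARNT in hypoxia it was also called with total count scaling (adjusted p 0.0327).

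SLC40A1 (ENSG00000138449.6, chromosome 2) encodes ferroportin. It stood at 188, 175 and 183 CPM in normoxia siControl and at 183, 170 and 170 in hypoxia siControl. In siARNT it was 316, 301 and 326 CPM in normoxia and 407, 350 and 331 in hypoxia, so all 6 siARNT libraries lay above all 6 siControl libraries. In normoxia siARNT raised it by 0.79 ± 0.07 (edgeR adjusted p 4.04e-05), and at low oxygen the rise was 1.06 ± 0.08 (adjusted p 1.50e-06), calls kept in 22 of 22 alternatives each. Hypoxia gave -0.06 ± 0.08 in siControl and 0.21 ± 0.07 in siARNT, neither called. The difference of 0.27 ± 0.11 was not called (adjusted p 0.17). Among the alternatives, total count scaling called the hypoxia change in siARNT (0.23, edgeR adjusted p 0.0448) and the difference (0.32, adjusted p 0.0377). Of the 8, siARNT raised 1 and lowered 1 in normoxia, where 20.2% of all genes were called (9.42% up, 10.8% down). In hypoxia it raised 3 and lowered 2, where 29.1% of all genes were called (14.4% up, 14.7% down). The siARNT and siControl libraries did not overlap for 4 of the 8 in normoxia and 5 in hypoxia, beside 46.5% and 40.3% of all genes.

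Of the sensors, ACO1 (ENSG00000122729.14, chromosome 9), encoding iron regulatory protein 1, stood at 98.9, 103 and 104 CPM in normoxia siControl and 91.4, 82.7 and 89.6 in hypoxia siControl. The log2 change was -0.21 ± 0.07 (edgeR adjusted p 0.0409), a call lost in 12 of 23 alternatives, with values from -0.24 to -0.14. In hypoxia, siARNT raised it by 0.21 ± 0.07 (adjusted p 0.0395), a call lost in 14 of 22. The change with hypoxia differed by 0.37 ± 0.10 between the siRNAs (adjusted p 0.0531). It was called in 8 of 22 alternatives. Among them were DESeq2 (adjusted p 0.0449), total count scaling (0.00646), GC correction (0.00269) and the replicate block (0.0483). With a block for each letter within an siRNA it was not called (edgeR adjusted p 0.0844). The labels do not say that these letters mark shared wells. IREB2 (ENSG00000136381.8, chromosome 15), encoding iron regulatory protein 2, ranged from 110 to 141 CPM, and none of its 5 comparisons was called. With GC correction the siARNT changes of IREB2 were called, 0.16 in normoxia (edgeR adjusted p 7.62e-04) and 0.13 in hypoxia (adjusted p 0.00213).

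**Figure D3:**
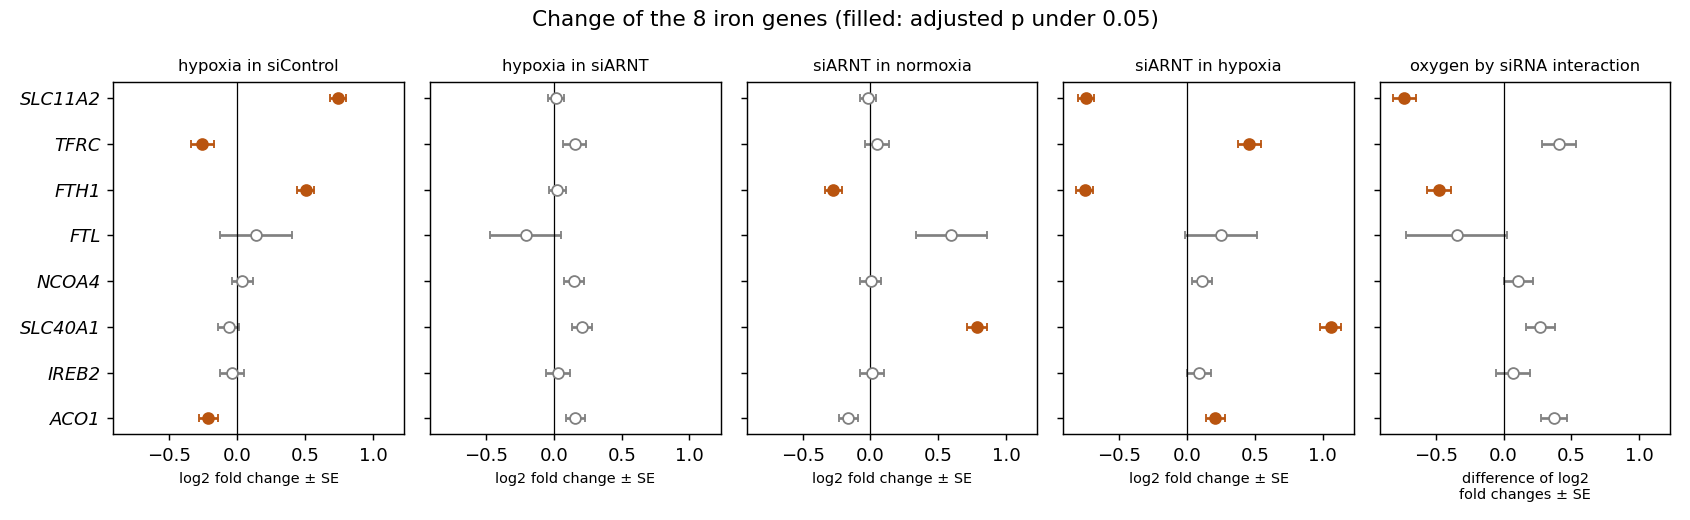
Log2 fold change ± SE of each gene in the 5 comparisons, filled where the adjusted p was under 0.05. The last panel shows the change with hypoxia under siARNT less the change under siControl, where SLC11A2 (-0.73) and FTH1 (-0.48) are filled.

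Per kilobase of merged exon in normoxia siControl, FTH1 lay highest at 2530 ± 42.9 CPM (SD, n = 3), followed by FTL at 918 ± 149. TFRC at 104 ± 4.46 and NCOA4 at 91.1 ± 2.8 came next, then SLC40A1 at 42.1 ± 1.46. ACO1 was at 13.5 ± 0.366, IREB2 at 11.4 ± 0.429 and SLC11A2 at 8.54 ± 0.307. Neighbours in this order lay apart by more than the sum of their SDs. These SDs hold only the spread between 3 libraries. An error in the merged exon length is shared by all libraries and does not show in them. The order was not tested.

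The deposited event files list 117 splicing events of the 8 genes, of which 87 were tested among 41350 events. None of the 87 was called in any comparison (edgeR), and calls over all events made up 0.00242% for hypoxia in siControl and in siARNT, 0.00484% for siARNT in hypoxia, and none in the other comparisons. The unadjusted p was under 0.05 for 3 of them in siARNT in hypoxia, for 1 in the interaction and for 0 in each of the other 3 comparisons. limma on the logit of the inclusion share called none either, with 7 of 87 at an unadjusted p under 0.05 for siARNT in hypoxia. Over all events, edgeR called at most 2 in a comparison, which limits what can be read from this. The skipped 222-nt exon of TFRC, its tested event with the highest count, was included at 0.93 to 0.95. For the other 7 genes, too, the tested event with the highest count is given. An alternative 5′ site of FTH1 was used at 0.02 to 0.04 and one of SLC40A1 at 0 to 0.01. Skipped exons of FTL (147 nt) and NCOA4 (89 nt) were included at 0.96 to 1.00 and 0.99 to 1.00, and a 25-nt exon of SLC11A2 at 0 to 0.02. Alternative 3′ sites of ACO1 and IREB2 were each used at 0 to 0.02. Other events varied more: the inclusion share ranged over at most 0.05 across the 12 libraries for 60 of the 87 tested events and over more than 0.1 for 20. Of these 20, 17 were among the 43 tested events of FTH1, 2 in SLC11A2 and 1 in NCOA4.

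Other genes of iron biology were grouped in 7 lists of 76 genes, of which 68 were tested. With hypoxia in siControl, 6 rose and 22 fell (all genes: 10.4% called up, 14.9% down). With hypoxia in siARNT, 3 rose and 3 fell (all genes: 2.21% called up, 1.89% down). The median log2 change of the 68 was -0.12 in siControl, beside 0.02 over all genes, and -0.11 in siARNT, beside -0.04. The list of mitochondrial import and iron-sulfur assembly, which also holds cytosolic assembly genes, had 10 of 24 genes down and none up in siControl. There the iron-sulfur assembly factors BOLA3 (log2 change -0.72 ± 0.12) and CIAPIN1 (-0.55 ± 0.07) fell. In the haem list, 2 of 17 rose and 6 fell: CPOX, an enzyme of haem synthesis, rose by 0.90 ± 0.09, and HMOX1 (haem oxygenase 1) by 0.64 ± 0.21. HMOX1 lay at only 3.08 to 7.44 CPM and its call was lost in 7 of 23 alternatives.

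**Figure D4:**
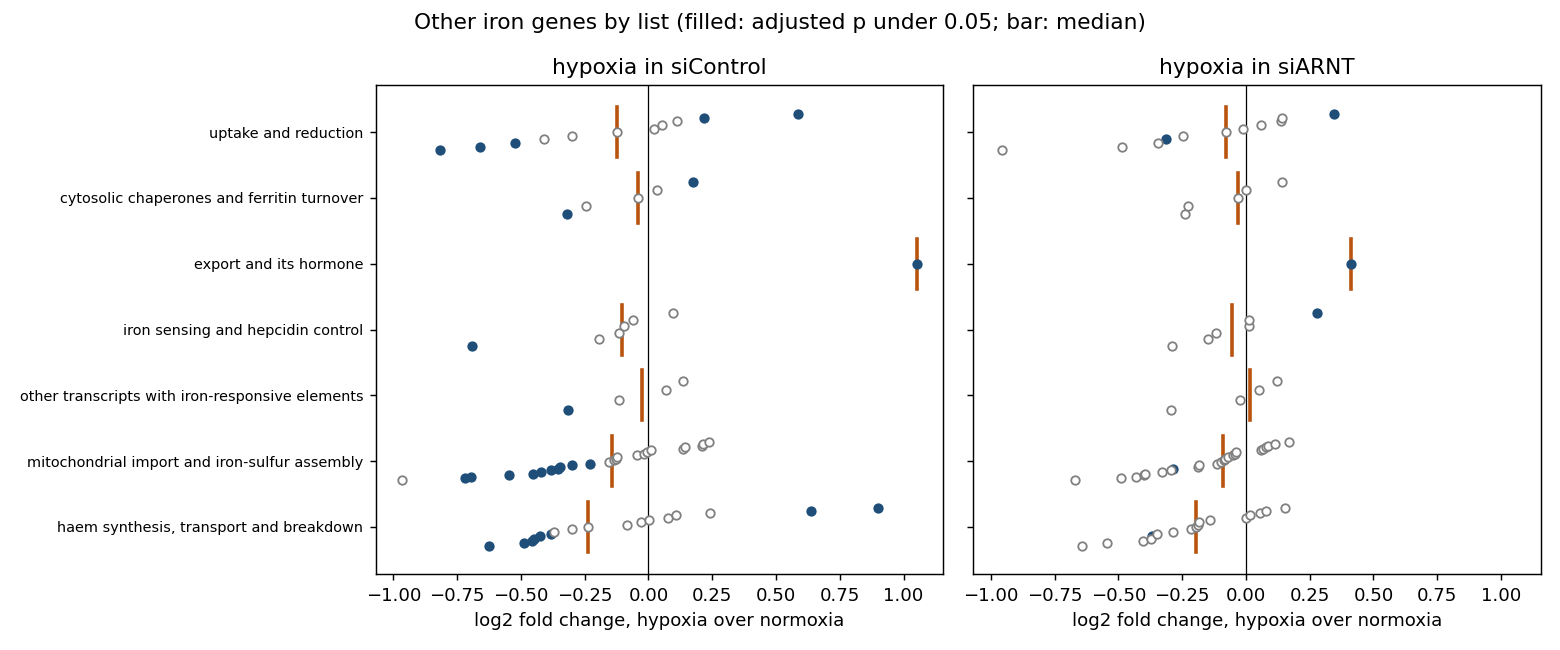
Log2 fold change with hypoxia of the 68 tested genes of 7 iron lists (rows), in siControl (left) and siARNT (right), filled where the adjusted p was under 0.05 and with a bar at each list's median. The list of mitochondrial import and iron-sulfur assembly holds 10 filled genes below 0 at left and 1 at right.

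In the export list, HEPH, the ferroxidase that works with ferroportin, was the only gene tested. It rose from 10.8, 9.25 and 10.3 CPM to 21.2, 20.5 and 21.3 with hypoxia in siControl (1.05 ± 0.08), and in siARNT from 12.9, 13.7 and 13.2 to 18.1, 16.4 and 18.4 (0.41 ± 0.08, a call lost in 7 of 23 alternatives). The difference was -0.64 ± 0.11 (edgeR adjusted p 0.00963). In the uptake list, CYBRD1, a ferrireductase, rose by 0.59 ± 0.08 in siControl, while SLC39A8 (-0.82 ± 0.12) and LCN2 (-0.66 ± 0.08) fell. In hypoxia, siARNT raised LCN2 by 0.86 ± 0.08 and STEAP3 by 0.66 ± 0.11, while CPOX changed by -1.31 ± 0.09. Across the 68 genes, siARNT raised 23 and lowered 8 in hypoxia and raised 15 and lowered 8 in normoxia. The shares over all genes were 14.4% up and 14.7% down in hypoxia, and 9.42% up and 10.8% down in normoxia. With GC correction the counts among the 68 were 33 up and 16 down in hypoxia, where 46.7% of all genes were called. In normoxia they were 17 up and 15 down, where 33.2% of all genes were called.

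Among 5 chaperone and ferritin turnover genes tested, 2 were called with hypoxia in siControl (25.3% of all genes were). PCBP2, a chaperone that delivers iron to ferritin, rose by 0.17 ± 0.06 with hypoxia in siControl and GLRX3 fell (-0.32 ± 0.10). The PCBP2 call was lost in 11 of 23 alternatives and the GLRX3 call in 5 of 23. In hypoxia, siARNT changed PCBP2 by -0.35 ± 0.06. Of 6 sensing and hepcidin control genes, BMP6 fell (-0.69 ± 0.19) with hypoxia in siControl, a call lost in 3 of 23 alternatives. With siARNT, 3 of these 6 were called in normoxia and 3 in hypoxia, beside 20.2% and 29.1% of all genes. FBXL5, which targets iron regulatory protein 2 for breakdown, changed by -0.32 ± 0.10 with siARNT in hypoxia, a call lost in 6 of 22, and NEO1 by 0.50 ± 0.06. Among 4 other transcripts described with IREs, EPAS1 (HIF-2 alpha) rose by 0.35 ± 0.07 with siARNT in hypoxia and CDC14A fell (-0.55 ± 0.10), and 3 of the 4 were called with siARNT in normoxia. In the haem list, siARNT in hypoxia raised SLC48A1, a haem transporter, by 0.75 ± 0.15 and HMOX2 by 0.69 ± 0.14. The mitochondrial iron importer SLC25A28 rose by 0.39 ± 0.11 there, a call lost in 4 of 22 alternatives. These siARNT and hypoxia comparisons share the hypoxia siControl libraries.

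By Pearson correlation of log2 CPM over the 12 libraries, which share their groups and depth, among 9855 genes at a mean of at least 5 CPM, the genes most like SLC11A2 were PDK1 (0.993), PTPRR (0.991) and DYNC2I1 (0.990). Those most like FTH1 were LIMCH1 (0.993), CHST11 (0.992) and EFNA5 (0.990). TFRC was closest to KNL1 (0.991), TOP1 (0.986) and PRNP (0.981), and SLC40A1 to TNRC6A (0.995), CTDSPL (0.991) and ATP6V1A (0.990). These are descriptions of 12 points.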

How the data were processed

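RNA-seq libraries (stranded, poly(A), single-end, per the labels' protocols) were deposited as counts, whole reads per gene from HTSeq per the file names; the submitters' processing notes name Trimmomatic, STAR 2.4.2a and GRCh38.p10, and the annotation is not given in the sources used here. Splice events were deposited by the authors as counts of junction reads, the inclusion share as a fraction and, for intron retention, mean coverage (signal), which was not tested. Event coordinates do not match GRCh38 and are not printed. Lines naming no gene held 22.71 to 25.2% of reads and were left out. A second gene table of 12 columns repeats these counts and was not used.

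The members and lists were chosen with earlier results of these data known. NCOA4 was identified by 7 exon-length pairs, the other 7 through a gene name table. Counts were fitted with edgeR 4.0.16 (R 4.3.3): TMM, filterByExpr, robust quasi-likelihood fit of all 12 libraries, Benjamini-Hochberg adjustment over 16999 genes within each of 5 comparisons; the interaction is the effect of hypoxia under siARNT less its effect under siControl. SE is the log2 fold change over the root of F. List genes were named as the 3 called genes of largest change at 1 CPM or more; some that this rule takes are not reported here. Alternatives were DESeq2 1.42.0, other scalings and filters, GC correction, replicate blocks and each library left out; limma 3.58.1 was the alternative for events. Deviations of same-letter libraries correlated above 0.1 for hypoxia in siControl (0.198 to 0.505) and siARNT in normoxia (0.197 to 0.642). For hypoxia in siARNT and siARNT in hypoxia only the A libraries did (0.749 and 0.375), and values ran down to -0.681. Some A and C libraries correlated with each other too, but hypoxia siARNT C did not follow the A libraries. It gave -0.749 with normoxia siARNT A and 0.818 with normoxia siARNT B. Normoxia siControl A gave 0.245 with hypoxia siControl C and 0.475 with normoxia siARNT C. The letters are thus not shown to pair libraries. Scripts were tested on simulated data.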

Additional observations from a re-analysis of the deposited data

Results flagged for a closer look

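The change with hypoxia differed between siARNT and siControl (interaction term, edgeR adjusted p under 0.05) for 2 of the 8 genes, SLC11A2 by -0.73 and FTH1 by -0.48. Among the other iron genes named, it differed for HEPH by -0.64, CPOX by -0.84 and UROS, an enzyme of haem synthesis, by 0.43. The UROS call held in 9 of 22 alternatives. Of the 68 tested genes of the iron lists, 4 were called in this comparison, 2 higher and 2 lower, beside 4.69% of all genes. Single outlying libraries were not tested in groups of 3.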

How the results depend on the processing

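Of the values of the 8 genes under all alternatives, 255 of those called at first stayed called in the same direction and 39 were lost; of those not called, 531 stayed so, 38 became called and 43 changed sign. The calls of SLC11A2 and FTH1 (hypoxia in siControl, siARNT in hypoxia, interaction), of SLC40A1 (both siARNT comparisons) and of TFRC (siARNT in hypoxia) held in every alternative run. The count for hypoxia in siControl was 4, and 2 with DESeq2 size factors, DESeq2 or no filter on low counts, and 2 to 4 with 1 library left out; TFRC and ACO1 were lost without any of the 6 siControl libraries, normoxia siARNT A or C, or hypoxia siARNT B. For hypoxia in siARNT the count of 0 became 1 with total count scaling and 4 with GC correction, with or without the replicate block. For siARNT in normoxia 2 became 1 without a filter and 5 with GC correction, with or without the block. For siARNT in hypoxia 5 became 4 with DESeq2 size factors, DESeq2, no filter or only the 6 libraries (ACO1 lost; 4 to 5 with 1 library left out), 6 with total count scaling or without the 2 steep libraries (NCOA4 gained) and 7 with GC correction. For the interaction 2 became 3 with DESeq2 or at least 1 CPM, 5 with total count scaling and 4 with the replicate block (letters), GC correction, both together, or without hypoxia siARNT C (range 2 to 4); it was also 4 without the 2 libraries of steepest GC slope, an alternative chosen after seeing the data. Total count scaling moved the all-gene median of siARNT in hypoxia to 0.10. No cause was tested. Fixing the event dispersion at 0, 0.005 or 0.01, also chosen after the data were seen, called 0 events of the 8 genes, as did the replicate block, limma and 20 counts as minimum.

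The sign changed only for values that were not called; FTL started from 0.251 (siARNT in hypoxia) and -0.207 (hypoxia in siARNT). With GC correction, alone and with the replicate block, SLC11A2 became -0.008 in both for hypoxia in siARNT, and 0.108 and 0.107 for siARNT in normoxia (also 0.017 with total count scaling and 0.001 without a filter). Under the same 2 settings SLC40A1 became 0.024 and 0.023 and IREB2 0.041 in both for hypoxia in siControl, and IREB2 -0.029 in both for the interaction. NCOA4 for siARNT in normoxia became -0.003 (DESeq2 size factors, DESeq2), -0.002 (only the 6 libraries) and -0.011 (at least 1 CPM), and FTL for siARNT in hypoxia -0.034 without the 2 steep libraries. With 1 library left out, FTH1 for hypoxia in siARNT ran from -0.004 to 0.086 and FTL from -0.501 to 0.085. FTL ran from -0.033 to 0.279 for hypoxia in siControl and from -0.041 to 0.460 for siARNT in hypoxia. IREB2 ran from -0.044 to 0.088 for hypoxia in siARNT, -0.072 to 0.024 for hypoxia in siControl and -0.031 to 0.084 for siARNT in normoxia. NCOA4 ran from -0.027 to 0.043 for siARNT in normoxia, and SLC11A2 from -0.006 to 0.057 for hypoxia in siARNT.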
